A study of Homo sapiens with 6 samples.

Results

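The genes described here are 35 members of the pathways that remove, or replicate past, damaged bases in DNA: nucleotide excision repair (20 genes), translesion synthesis (7), mismatch repair (4), base excision and single-strand break repair (3), and the chromatin protein gene HMGB1. They were taken by gene symbol from a fixed list, which was chosen with earlier results of these data known. Each of the 35 was found among the 17156 genes of the gene table. All 35 passed the filter on low counts, which left 12671 genes for the test. The cells were SiHa, an established human line that came from a squamous carcinoma of the cervix, and RNA was sequenced after 48 h in 20 µM cisplatin. There were 3 libraries of control cells (shcontrol) and 3 of cells in which VPS13C, the gene of a lipid transfer protein, was knocked down with a short hairpin RNA (shVPS13C). Both groups had the drug, so these libraries compare knockdown with control under cisplatin and do not measure the response to it. The labels do not say whether the replicates were separate cultures or whether the knockdown line was a clone, so the spread between libraries may be technical.

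Cisplatin joins neighbouring bases, mostly guanines, into crosslinks. Nucleotide excision repair cuts such an adduct out of the strand and fills the gap, translesion polymerases copy past an adduct that remains at the replication fork, and mismatch repair proteins recognise distorted or mispaired sites, including some platinum adducts. Changes in each of these pathways have been linked to platinum sensitivity in cancer cells, and the question here was whether their transcripts differed between knockdown and control cells under the drug.

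Library totals lay between 15643965 and 16333424 estimated counts, and the member counts per library between 200 and 7157. VPS13C itself stood at 50.0, 54.9 and 49.6 CPM (counts scaled to library size) in shcontrol and at 23.7, 25.1 and 27.5 CPM in shVPS13C. Of 12 markers of squamous or simple epithelium, 9 passed the filter, with KRT8, KRT17 and KRT18 at 1030 to 2220 CPM. TP63 passed at only 0.898 to 1.69 CPM and EPCAM at 3.65 to 5.08 CPM. The means of CDH1 and EPCAM were higher in shVPS13C, and those of the other markers that passed were lower. The list summed to 5300 to 5470 CPM in shcontrol and 5020 to 5230 CPM in shVPS13C. The keratin genes KRT5, KRT14 and KRT6A were at or below 0.127 CPM in every library. Immune markers were near 0 (PTPRC at 0 in all libraries), apart from CD68 at 54.3 to 58.5 CPM, and 4 endothelial markers summed to 2.08 to 3.94 CPM. The 6 fibroblast markers summed to 15.6 to 16.2 CPM in shcontrol and 20.1 to 22.9 CPM in shVPS13C. Nearly all of that sum was COL1A1 (14.6 to 20.8 CPM), with DCN and PDGFRB at or below 0.127 CPM, and the part of these marker differences in the values below was not tested.

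None of the 35 repair genes differed between shVPS13C and shcontrol at an adjusted p under 0.05. The count was 0 of 35 with the edgeR quasi-likelihood test, where 4.5% of all tested genes passed, and 0 of 35 with DESeq2, where 2.82% passed. At an unadjusted edgeR p under 0.05 there were 4 members, POLH, ERCC5, ERCC8 and PMS2, which is 11.4% of the list against 18.9% of all tested genes; DESeq2 gave 2. In bulk RNA, a lower level in every cell and fewer cells with the transcript cannot be told apart. Without shVPS13C replicate 1, 2 or 3 the count over all genes went from 570 to 204, 273 and 274. The member count stayed at 0 in each of these but the fit without shVPS13C replicate 2, where POLH passed.

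The fit gave narrow intervals for most of these transcripts. Such intervals rest on the spread between libraries, which may be technical. They therefore describe these libraries and may be too narrow for separate cultures or other knockdown lines. The 95% confidence interval of the log2 fold change, shVPS13C over shcontrol, lay inside 1.2-fold either way for 30 of the 35 genes, where 65.4% of all tested genes had such an interval. The 5 exceptions were POLH, ERCC5, ERCC8, REV3L and ERCC6. Interval width also depends on the count, and every member had at least 200 counts in each library. The median level of the members was 18.6 FPKM, beside 12.8 FPKM for all tested genes. The share among tested genes of like count was not computed, so the gap cannot be read as a trait of repair genes. No bound of any member reached past 1.29-fold, the upper bound of ERCC8, and in the alternative fits the widest reached 1.35-fold, for POLH with FPKM values. Fitted values lay between -0.18 (POLH) and 0.20 (ERCC8), and in 6 genes their size was above 0.1 on the log2 scale. The members' median was -0.03 and that of all tested genes was -0.00, and 24 of the 35 fitted values were below 0, or 68.6%, beside 50.4% of all tested genes. By pathway the median was -0.02 over the 20 excision repair genes (13 below 0), -0.09 over the 7 translesion genes (6 below 0), -0.07 over the 4 mismatch repair genes and -0.09 over the 3 base excision genes. These counts describe the lists and are not a test of them.

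**Figure D1:**
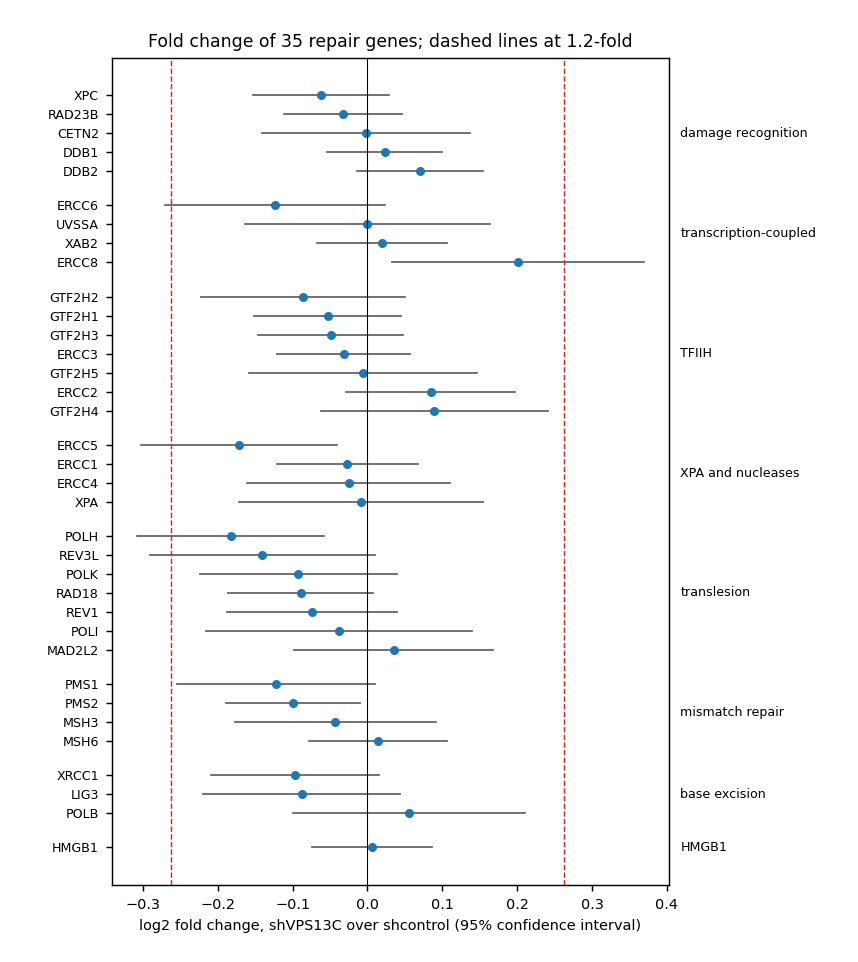
Log2 fold change of each repair gene (point) with its 95% confidence interval (line), shVPS13C over shcontrol, n = 3 libraries each, grouped by role; dashed lines mark 1.2-fold either way. Of the 35 intervals, 30 lie between the dashed lines and the widest bound is at 0.37, for ERCC8.

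Groups did not overlap in 7 members. The 2 higher ones in shVPS13C were ERCC8 and DDB2, where 11.8% of all tested genes were higher without overlap. The 5 lower ones were ERCC5, XPC, GTF2H3, PMS1 and PMS2, where 11.3% of all tested genes were lower without overlap. Replicates of 1 group were close to each other: the median SD of log2 CPM within groups was 0.06 over the members and 0.07 over all tested genes. The largest was that of MAD2L2, at 0.14, and the smallest that of GTF2H3, at 0.01.

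**Figure D2:**
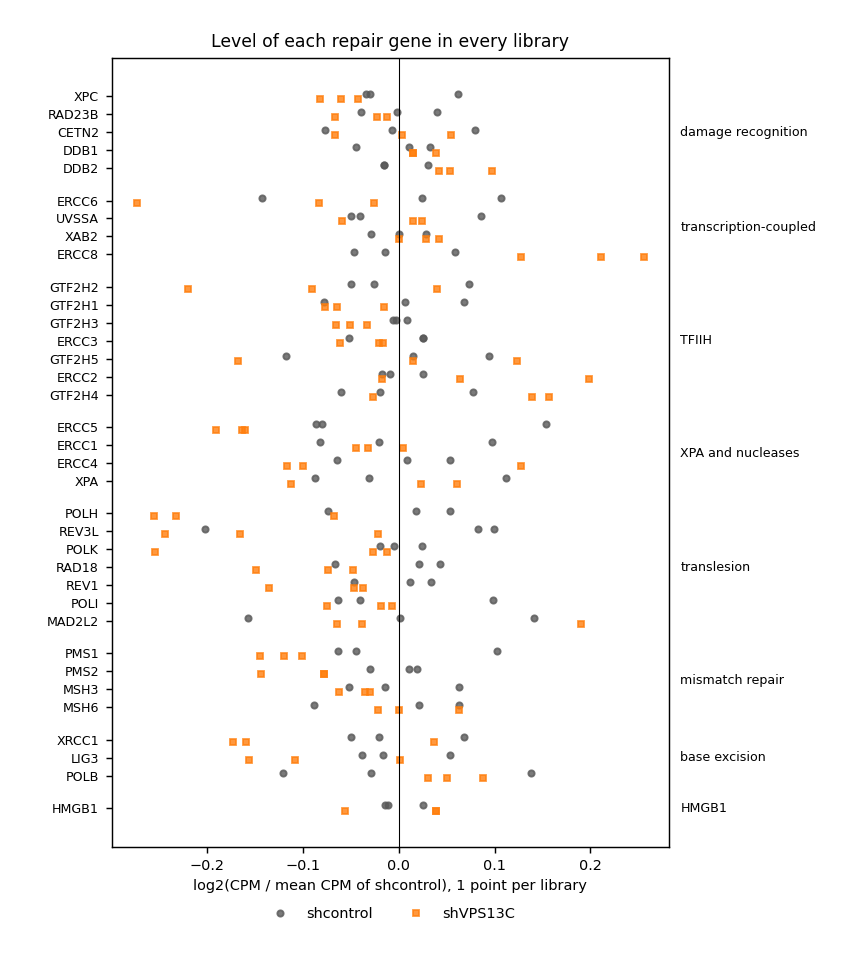
CPM of each repair gene in each of the 6 libraries, as log2 of the ratio to the shcontrol mean (circles shcontrol, squares shVPS13C, 1 point per library). Most genes have squares among the circles; in ERCC8 and DDB2 the 3 squares lie to the right of all circles and in ERCC5, XPC, GTF2H3, PMS1 and PMS2 to the left.

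The 4 genes with an unadjusted p under 0.05 sit on different chromosomes, and the 250 bases before their first RefSeq start site are shown because these members had the smallest p-values. The sequences are from RefSeq on GRCh38.p14, written 5′ to 3′ on the strand of the gene. They lie at chr6:43575935-43576184 (plus strand) for POLH, chr13:102845782-102846031 (plus strand) for ERCC5, chr5:60945071-60945320 (minus strand) for ERCC8 and chr7:6009107-6009356 (minus strand) for PMS2. Capitals mark, on either strand, the GC box GGGCGG, the CCAAT box CCAAT, the ETS core CCGGAAG, the cyclic AMP response element TGACGTCA and the TATA box TATAAA.
POLH: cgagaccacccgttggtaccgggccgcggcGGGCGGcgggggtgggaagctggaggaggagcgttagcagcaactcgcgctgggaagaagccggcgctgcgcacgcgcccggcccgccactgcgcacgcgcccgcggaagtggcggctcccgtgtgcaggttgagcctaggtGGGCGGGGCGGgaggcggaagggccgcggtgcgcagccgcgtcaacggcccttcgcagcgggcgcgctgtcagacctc
ERCC5: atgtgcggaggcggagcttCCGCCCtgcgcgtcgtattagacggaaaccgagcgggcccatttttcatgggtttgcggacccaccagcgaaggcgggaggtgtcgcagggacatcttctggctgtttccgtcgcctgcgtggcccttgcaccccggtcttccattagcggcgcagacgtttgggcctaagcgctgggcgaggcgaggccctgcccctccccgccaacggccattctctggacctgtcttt
ERCC8: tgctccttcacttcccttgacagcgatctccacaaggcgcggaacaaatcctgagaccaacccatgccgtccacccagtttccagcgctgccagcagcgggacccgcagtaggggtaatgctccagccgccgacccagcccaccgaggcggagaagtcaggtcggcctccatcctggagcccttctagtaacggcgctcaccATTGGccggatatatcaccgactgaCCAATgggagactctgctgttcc
PMS2: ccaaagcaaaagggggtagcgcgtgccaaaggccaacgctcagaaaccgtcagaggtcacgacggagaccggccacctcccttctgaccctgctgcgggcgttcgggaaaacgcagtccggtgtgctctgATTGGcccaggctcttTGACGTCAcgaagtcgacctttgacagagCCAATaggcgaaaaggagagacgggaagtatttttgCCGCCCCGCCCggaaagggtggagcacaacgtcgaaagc

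Matches to different motifs did not overlap in these 4 promoters. POLH held 3 GC boxes and ERCC5 1, ERCC8 held 2 CCAAT boxes and no GC box, and PMS2 held 2 GC boxes, 2 CCAAT boxes and the cyclic AMP response element. For the shares below, only the first listed start site of each gene was counted. DDB2, ERCC1, ERCC6 and HMGB1 held no GC box there but held at least 1 at another listed site. Of the 34 members with a promoter searched, 25 (73.5%) held a GC box, 13 (38.2%) a CCAAT box, 8 (23.5%) an ETS core and 1 each the cyclic AMP response element and a TATA box (REV3L). Among the first promoters of 27305 genes the shares were 42.3%, 33.0%, 8.82%, 1.77% and 11.1% in that order. That background is larger than the 12671 genes tested and so holds genes that were not, whereas all members passed the filter. The shares among tested genes alone were not computed, so the gaps cannot be read as a trait of repair genes. A full p53 site was in 0 of the 34 windows and in 0.0293% of all; DDB2, XPC and POLH are known p53 targets, and the windows here cover only 250 bases each. A match is a run of letters and not a measured site.

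Damage recognition showed no called change in 5 genes. XPC binds the distorted helix and RAD23B and CETN2 hold it in a stable complex, while DDB1 and DDB2 form the sensor that hands lesions to XPC. DDB2 stood at 123, 123 and 127 CPM in shcontrol and 128, 129 and 133 CPM in shVPS13C, with all knockdown libraries above all controls by a small margin. Its log2 fold change was 0.07 (95% confidence interval -0.01 to 0.15, edgeR adjusted p = 0.369). XPC stood at 89.1, 95.3 and 89.4 CPM in shcontrol and 87.5, 88.6 and 86.2 CPM in shVPS13C. All 3 knockdown libraries were lower, at a log2 value of -0.06 (-0.15 to 0.03, adjusted p = 0.482). DDB1 stood at 401, 407 and 386 CPM in shcontrol and 402, 402 and 409 CPM in shVPS13C, with overlap (0.02, -0.05 to 0.10). Per length, in FPKM (fragments scaled to transcript length and library size), it had the highest level of the 5, 100.0 ± 3.26 (SD, n = 3) in shcontrol and 102 ± 0.980 in shVPS13C. CETN2, a centrin, had the lowest, 24.2 ± 1.28 and 24.2 ± 1.17 FPKM, with overlapping groups at 29, 26.0 and 27.3 CPM in shcontrol and 28.5, 26.2 and 27.5 CPM in shVPS13C (-0.00, -0.14 to 0.14). RAD23B lay between them in level, also with overlapping groups (log2 -0.03, adjusted p = 0.7).

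In transcription-coupled repair, which starts where RNA polymerase stalls at a lesion, the values of the CSA gene ERCC8 and the CSB gene ERCC6 lay on opposite sides of 0. ERCC8 is the substrate adaptor of a ubiquitin ligase that acts at the stalled polymerase. It stood at 13.3, 14.3 and 13.6 CPM in shcontrol and 15, 15.9 and 16.4 CPM in shVPS13C, so the groups did not overlap. This was the highest fitted value of the 35 genes, a log2 of 0.20 (SE 0.081, interval 0.03 to 0.37, unadjusted p = 0.0208, adjusted p = 0.173). ERCC6, a chromatin remodeller that reaches the polymerase first, stood at 37.5, 39.7 and 33.4 CPM in shcontrol and 36.2, 30.5 and 34.8 CPM in shVPS13C. Its groups overlapped, and the log2 value was -0.12 (-0.27 to 0.02, adjusted p = 0.362). The FPKM of ERCC6 over that of ERCC8 was 0.937 ± 0.142 (SD, n = 3) in shcontrol and 0.757 ± 0.115 in shVPS13C, with overlapping groups (0.776 to 1.04 and 0.637 to 0.867). UVSSA, which brings TFIIH to the site, had the lowest level of the 4 per length, 3.5 ± 0.301 and 3.52 ± 0.0666 FPKM, and XAB2, an XPA-binding splicing factor, the highest, 43.1 ± 0.596 and 43.7 ± 0.677 FPKM. UVSSA stood at 15.3, 15.2 and 16.7 CPM in shcontrol and 15.9, 16 and 15.1 CPM in shVPS13C (log2 0.00, -0.16 to 0.16). XAB2 stood at 102, 100.0 and 104 CPM in shcontrol and 104, 105 and 102 CPM in shVPS13C (log2 0.02, -0.07 to 0.11). The groups of both overlapped.

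TFIIH opens the DNA around the lesion and also serves transcription initiation; its 7 core subunit genes all had intervals inside 1.2-fold. ERCC2, the XPD helicase, stood at 55.0, 53.7 and 53.4 CPM in shcontrol and 53.4, 62.0 and 56.5 CPM in shVPS13C, so the groups overlapped and shVPS13C 2 was highest. Its log2 value was 0.08 (-0.03 to 0.20, adjusted p = 0.43), and 0.02 without shVPS13C replicate 2. GTF2H2 stood at 39.1, 36.5 and 35.9 CPM in shcontrol and 38.2, 31.9 and 34.9 CPM in shVPS13C (log2 -0.09, -0.22 to 0.05, adjusted p = 0.518). The other 5 lay between -0.05 (GTF2H1) and 0.09 (GTF2H4). GTF2H3 had the tightest replicates of the 35 genes, at 59.5, 59.0 and 58.9 CPM in shcontrol and 57.8, 56.5 and 57.1 CPM in shVPS13C. Its groups did not overlap, at a log2 value of -0.05 (-0.15 to 0.05, adjusted p = 0.623). Per length, the translocase gene ERCC3 was highest, 39.6 ± 1.01 FPKM (SD, n = 3) in shcontrol, and the small subunit gene GTF2H5 lowest, 4.38 ± 0.318 FPKM. ERCC3 stood at 98.4, 93.3 and 98.4 CPM in shcontrol and 95.3, 92.7 and 95.6 CPM in shVPS13C (log2 -0.03, -0.12 to 0.06). GTF2H5 stood at 33.7, 31.9 and 29.1 CPM in shcontrol and 28.1, 31.9 and 34.4 CPM in shVPS13C (log2 -0.01, -0.16 to 0.15). The groups of both genes overlapped, and the ratio of their FPKM values was 9.07 ± 0.773 in shcontrol and 8.94 ± 0.965 in shVPS13C.

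Some TFIIH and nuclease genes share sequence with other genes, which limits what reads of 50 bases can assign. Of the distinct 50-base stretches of GTF2H2, 62.9% are also in its near-identical copy GTF2H2C. Of those of GTF2H4, 91.3% are also in a transcript of its neighbour VARS2 in GENCODE 29. The RefSeq spans of GTF2H4 and VARS2 do not overlap (chr6:30908207-30914106 and chr6:30914238-30926459). The counts of both were whole numbers in every library, so no split of reads between them is seen there. Summed, GTF2H2 and GTF2H2C stood at 81.5, 82.6 and 80.1 CPM in shcontrol and 80.4, 75.5 and 77.9 CPM in shVPS13C (log2 -0.06, -0.15 to 0.03, adjusted p = 0.481). Of the stretches of PMS2, 27.0% are in its copy PMS2CL, which was not analysed here. HMGB1 shares 8.58% with its pseudogene HMGB1P5. On the opposite strand, 42.7% of LIG3 stretches match RFFL, 31.2% of ERCC1 match CD3EAP, 22.0% of ERCC4 match AC010401.1, 21.2% of XPC match AC093495.1, 17.7% of MSH6 match FBXO11 and 16.5% of REV1 match EIF5B. Whether counting used strand is not given in the sources used here, so reads in these stretches may come from either gene.

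Of the 4 genes that verify the lesion and cut the strand, ERCC5 had the largest fitted difference. ERCC5 encodes XPG, the nuclease on the side opposite to that of ERCC1 and ERCC4. It stood at 40.5, 47.6 and 40.3 CPM in shcontrol and 37.5, 38.3 and 38.2 CPM in shVPS13C. The groups did not overlap, with shcontrol 2 well above the rest, and the log2 value was -0.17 (SE 0.064, -0.30 to -0.04, unadjusted p = 0.0126, adjusted p = 0.131). Without shcontrol replicate 2 it was -0.09 (adjusted p = 0.512, over a range of 0.0817 to 0.651 across alternatives). The read-through gene BIVM-ERCC5 shares 63.8% of the 50-base stretches of ERCC5 and has a row of its own. Its estimated counts were 11.5, 22.5 and 116 in shcontrol and 54.8, 111 and 123 in shVPS13C, a wide spread within both groups. The sum of the rows was 41.2, 49.0 and 47.8 CPM in shcontrol and 40.9, 45.3 and 45.9 CPM in shVPS13C. There the groups overlapped, and the log2 value was -0.06 (SE 0.065, -0.20 to 0.07, unadjusted p = 0.338, adjusted p = 0.651). The fitted difference was thus smaller for the summed rows than for ERCC5 alone, and the cause of this shift was not tested.

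**Figure D3:**
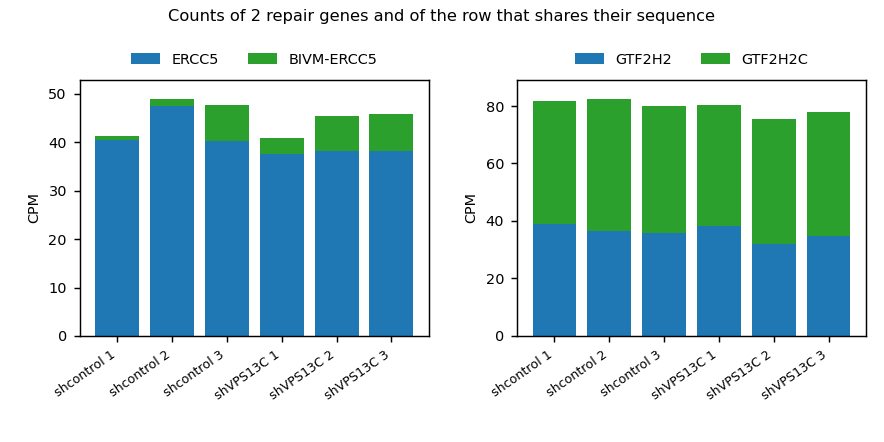
CPM per library of ERCC5 with the read-through gene BIVM-ERCC5 (left) and of GTF2H2 with its copy GTF2H2C (right), stacked. BIVM-ERCC5 takes little of the bar in shcontrol 1 and 2 and more in shcontrol 3 and in shVPS13C, and the summed bars of the groups overlap.

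The other nuclease genes and XPA lay close to 0. ERCC1, the partner of the XPF nuclease ERCC4, stood at 113, 118 and 128 CPM in shcontrol and 116, 120 and 117 CPM in shVPS13C (log2 -0.03, -0.12 to 0.07, adjusted p = 0.804). ERCC4 stood at 38.5, 39.7 and 36.6 CPM in shcontrol and 35.3, 35.7 and 41.8 CPM in shVPS13C, with overlap and a log2 value of -0.03 (-0.16 to 0.11). These proteins work as a pair, but per length ERCC1 transcripts were more abundant than those of ERCC4 by 7.65 ± 0.717 times (SD, n = 3) in shcontrol and 7.69 ± 0.835 times in shVPS13C. XPA, the scaffold that checks the lesion, had 17.1 ± 1.42 and 17.1 ± 1.23 FPKM and a log2 value of -0.01 (-0.17 to 0.15).

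Among translesion genes the lowest value was that of POLH, which encodes polymerase eta, the enzyme known for copying past ultraviolet dimers and cisplatin crosslinks of neighbouring guanines. POLH stood at 45.1, 46.2 and 42.3 CPM in shcontrol and 37.9, 42.5 and 37.3 CPM in shVPS13C. The groups touched, since shVPS13C 2 lay just above shcontrol 3. The log2 value was -0.18 (SE 0.061, -0.31 to -0.06), the unadjusted p was 0.00596 and the adjusted p 0.0908. Without shVPS13C replicate 2 the log2 value was -0.24 and the edgeR adjusted p 0.0482, over a range of 0.0482 to 0.3 across 14 alternatives. In FPKM the groups did not overlap, with 11.1, 10.9 and 10.2 in shcontrol and 8.66, 9.66 and 8.26 in shVPS13C. On log2(FPKM + 0.1) the difference was -0.28 (limma-trend adjusted p = 0.0943). FPKM is also scaled to transcript length, and the estimated transcript shares of POLH differed between groups. NM_006502.3, with the highest mean share, took 38.4 ± 2.79% in shcontrol and 46.3 ± 3.55% in shVPS13C (SD, n = 3). Short reads fix such shares poorly, and their part in the larger FPKM difference was not tested.

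The other translesion genes were not called either. REV3L, the catalytic subunit of polymerase zeta, stood at 42.9, 43.4 and 35.2 CPM in shcontrol and 36.1, 34.2 and 39.9 CPM in shVPS13C. Its groups overlapped, with shcontrol 3 near the knockdown libraries, and the log2 value was -0.14 (-0.29 to 0.01, adjusted p = 0.301). Without shcontrol replicate 3 it was -0.23 (adjusted p = 0.0535, over a range of 0.0535 to 0.631 across alternatives). RAD18, the ubiquitin ligase that recruits these polymerases to PCNA (-0.09), POLK (-0.09) and REV1 (-0.07), a scaffold for the others, had values below 0 in the main fit and in all 14 alternatives, as had POLH and REV3L. The alternatives reuse the same libraries, so a kept sign is not independent support. Members of other pathways, such as XPC, RAD23B and GTF2H3, also stayed below 0, while others, such as XPA and MSH6, took either sign. POLI, another bypass polymerase, stood at 12.6, 12.8 and 14.1 CPM in shcontrol and 13.1, 13 and 12.5 CPM in shVPS13C, with overlap. Its log2 value was -0.04 (-0.22 to 0.14), but 0.06 on log2(FPKM + 0.1), 0.04 on log2(FPKM + 1) and 0.01 without shcontrol replicate 3.

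MAD2L2, the REV7 subunit that links REV3L to REV1, was the least reproducible of the 35 genes within groups. It stood at 93.6, 76.1 and 85.0 CPM in shcontrol and 96.9, 82.7 and 81.2 CPM in shVPS13C, so replicate 1 was highest in both groups. Its log2 value was 0.04 (-0.10 to 0.17, adjusted p = 0.822) and ran from -0.05 to 0.11 as single libraries were left out. MAD2L2 had the highest level of the 7 translesion genes, 109 ± 10.7 FPKM (SD, n = 3) in shcontrol and 111 ± 11.7 FPKM in shVPS13C. POLI had the lowest, 2.95 ± 0.121 and 3.07 ± 0.127 FPKM, and REV3L stood just above it at 3.84 ± 0.477 and 3.47 ± 0.276 FPKM. Per length, MAD2L2 transcripts exceeded those of its partner REV3L by 28.6 ± 4.70 times in shcontrol and 32.3 ± 4.64 times in shVPS13C, with overlapping groups.

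Of the 4 mismatch repair genes, PMS1 and PMS2 had groups that did not overlap. PMS2, the endonuclease subunit of the MutL complex, stood at 92.1, 95.3 and 94.7 CPM in shcontrol and 89.1, 85.1 and 89.1 CPM in shVPS13C. The log2 value was -0.10 (SE 0.043, -0.19 to -0.01, unadjusted p = 0.0305, adjusted p = 0.206), so all knockdown libraries were lower but by under 1.2-fold even at the bound. PMS1, another MutL family gene, stood at 31.1, 34.9 and 31.5 CPM in shcontrol and 29.4, 30.3 and 29.9 CPM in shVPS13C (log2 -0.12, -0.25 to 0.01, adjusted p = 0.311). MSH6, which recognises base mismatches and small loops, stood at 136, 140 and 126 CPM in shcontrol and 134, 132 and 140 CPM in shVPS13C (0.01, -0.08 to 0.11). MSH3, which recognises larger loops, stood at 26.6, 27.3 and 28.8 CPM in shcontrol and 26.4, 27.0 and 26.9 CPM in shVPS13C (-0.04, -0.18 to 0.09). The groups of both MSH genes overlapped. MSH6 exceeded MSH3 per length by 5.09 ± 0.444 times (SD, n = 3) in shcontrol and 5.28 ± 0.192 times in shVPS13C.

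In base excision and single-strand break repair all 3 genes had intervals inside 1.2-fold. XRCC1, the scaffold of this pathway, stood at 68.2, 69.6 and 74.0 CPM in shcontrol and 62.6, 72.4 and 63.2 CPM in shVPS13C. Its groups overlapped through shVPS13C 2 (log2 -0.10, -0.21 to 0.02, adjusted p = 0.352), and without that library the value was -0.17 (adjusted p = 0.11, over a range of 0.11 to 0.72 across alternatives). LIG3, the ligase bound to XRCC1, stood at 34.0, 31.9 and 32.4 CPM in shcontrol and 29.4, 32.8 and 30.4 CPM in shVPS13C (-0.09, -0.22 to 0.04, adjusted p = 0.486). XRCC1 was the highest of the 3 per length, 39.8 ± 1.64 FPKM in shcontrol, and LIG3 the lowest, 8.57 ± 0.497 FPKM (SD, n = 3). POLB, the gap-filling polymerase, lay between them at a log2 value of 0.06 (-0.10 to 0.21).

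HMGB1, an abundant chromatin protein that binds DNA bent by cisplatin adducts, stood at 423, 435 and 424 CPM in shcontrol and 439, 411 and 439 CPM in shVPS13C. The groups overlapped, and the log2 value was 0.01 (-0.07 to 0.09, adjusted p = 0.959), one of the tightest intervals of the 35. It was the most abundant of these transcripts per length, at 148 ± 3.4 FPKM (SD, n = 3) in shcontrol and 149 ± 5.38 FPKM in shVPS13C.

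Across the pathways, levels per length covered a wide range that both groups shared. The median of the members was 18.6 FPKM and that of all tested genes 12.8 FPKM, and 21 of the 35 stood above the latter. After HMGB1 came MAD2L2, DDB1, DDB2 and RAD23B, from 110 down to 70.4 FPKM as means of all 6 libraries. MAD2L2 and DDB1 did not differ beyond the spread of MAD2L2, whose libraries ran from 98.2 to 125 FPKM around those of DDB1, from 96.9 to 103 FPKM. At the low end stood GTF2H5 (4.37 FPKM), REV3L (3.65), UVSSA (3.51) and POLI (3.01), and the libraries of REV3L and UVSSA overlapped (3.25 to 4.17 and 3.22 to 3.82 FPKM).

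**Figure D4:**
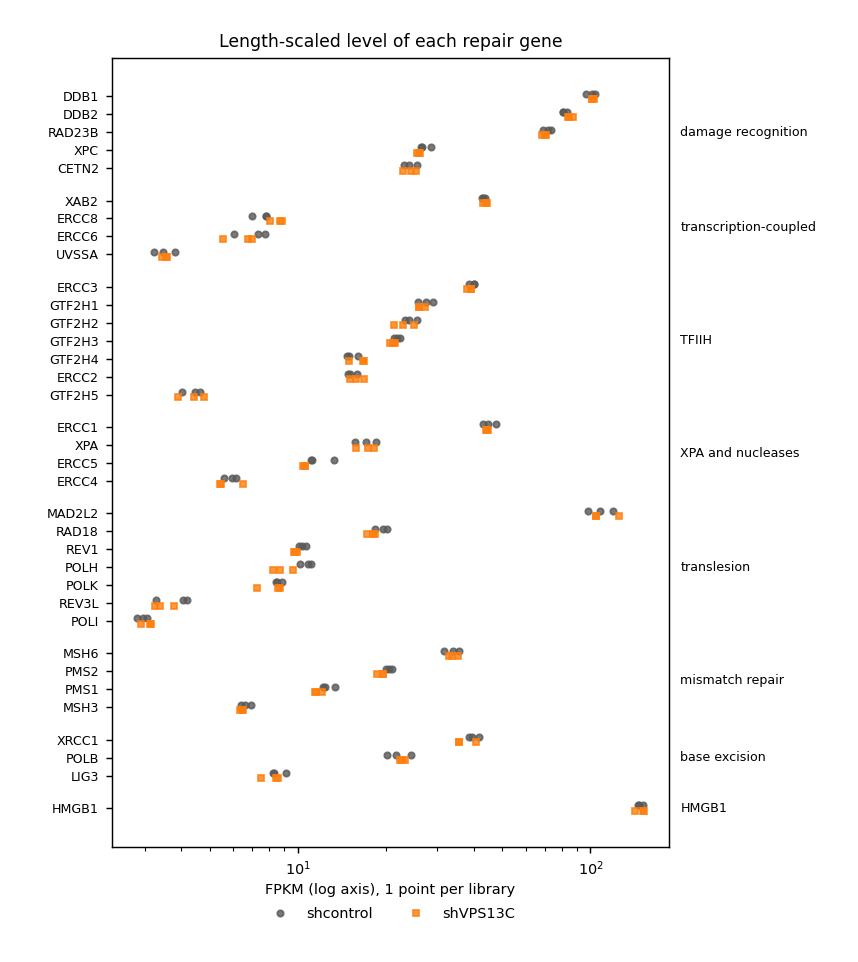
FPKM (log axis) of each repair gene in each of the 6 libraries (circles shcontrol, squares shVPS13C), ordered by mean level within each role. Levels run from about 3.01 FPKM for POLI to 148 FPKM for HMGB1, and the groups lie on top of each other at this scale.

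The transcript table splits the counts of these genes over 219 RefSeq transcripts, 207 of them with counts. It lists 1 transcript for 7 members and several for 28. In 12 members the leading transcript, the one with the highest mean share, held at least 90% of the gene in every library. In 11 of the 35 it stayed under 50% in every library. Shares between transcripts with common exons are estimates that reads of 50 bases fix poorly, so they are given without a test.

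In 6 of the 28 genes the share of the leading transcript was higher in all shVPS13C libraries than in all shcontrol libraries, and in 0 it was lower. Among 10213 tested genes with several transcripts, 5.54% were higher in this way and 4.11% lower. The 6 were POLH, REV1, RAD18, POLI, MSH6 and GTF2H2, of which 4 are translesion genes. In the remaining translesion genes, POLK, REV3L and MAD2L2, the groups overlapped and the shVPS13C mean was the lower one. The leading POLK transcript took 74.2 ± 6.63% in shcontrol and 58.9 ± 11.2% in shVPS13C (SD, n = 3). Another POLK transcript, the predicted XM_017009560.2, took 0% in every shcontrol library and 12.9%, 27% and 9.3% in shVPS13C. For POLH, the leading transcript NM_006502.3 took 37.2%, 41.6% and 36.5% of the counts in shcontrol and 42.3%, 47.8% and 48.9% in shVPS13C. The predicted transcript XM_005249186.4 took 23.3 ± 5.91% in shcontrol and 15.1 ± 2.69% in shVPS13C (SD, n = 3). The leading REV1 transcript NM_016316.4 took 35.7%, 25% and 17.5% in shcontrol and 39.1%, 39.1% and 39.0% in shVPS13C, so the controls were spread widely and the knockdown libraries were not. RAD18 has 2 transcripts, and the leading one took 66.7 ± 0.597% and 68.9 ± 0.753%. The leading MSH6 transcript took 94.7 ± 0.600% and 97.2 ± 0.765%, and that of POLI 46.2 ± 3.75% and 51.3 ± 2.94%. ERCC1 has 13 transcripts, and the leading one, NM_001983.4, ran from 36.9% to 42.7% in shcontrol and from 23.5% to 39.0% in shVPS13C, with overlap.

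**Figure D5:**
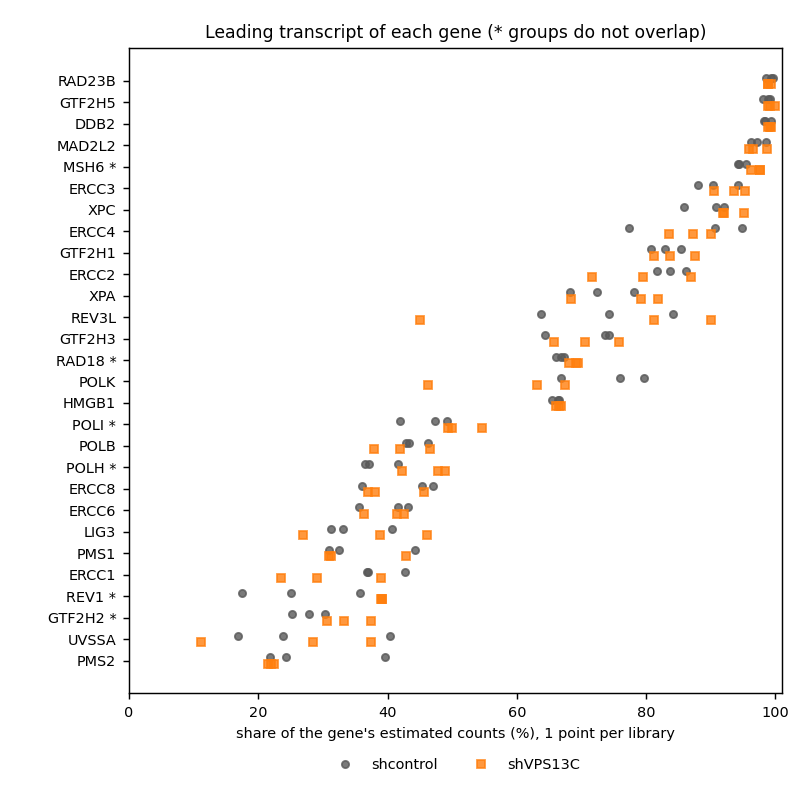
Share of each gene's estimated counts taken by its leading RefSeq transcript, in percent, for the 28 repair genes with several transcripts (circles shcontrol, squares shVPS13C, 1 point per library). Asterisks mark the 6 genes whose groups do not overlap; in each of them the squares are to the right.

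The pathways around the members gave the same count. Of 67 other genes of excision repair, gap filling, mismatch repair, base excision, damage tolerance and platinum-binding HMG box proteins, 66 were tested and 0 passed at an adjusted p under 0.05 with edgeR or DESeq2, where 4.5% and 2.82% of all tested genes passed. At an unadjusted edgeR p under 0.05 there were 10 (15.2%), beside 18.9% of all tested genes. EXO1, the exonuclease of mismatch repair, stood at 61.0, 67.9 and 61.9 CPM in shcontrol and 72.0, 68.5 and 71.4 CPM in shVPS13C, without overlap. Its value was 0.15 (0.05 to 0.25, adjusted p = 0.09), and it passed without shcontrol replicate 2 (0.0372). PCNA, the clamp that holds repair and translesion polymerases, stood at 310, 299 and 300 CPM in shcontrol and 344, 306 and 336 CPM in shVPS13C. Its groups overlapped (0.12, 0.03 to 0.21, adjusted p = 0.114), and it passed without shVPS13C replicate 2 (0.0404). Of the 15 gap-filling genes 12 had values above 0 with a median of 0.04, while 9 of the 14 other excision repair genes had values below 0 with a median of -0.06; 50.4% of all tested genes had values below 0. The medians were -0.01 over 19 other base excision genes, 0.01 over 12 other damage tolerance genes, 0.03 over 2 other mismatch repair genes and -0.01 over 4 other HMG box genes.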

How the data were processed

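Total RNA of 6 SiHa libraries was read as single-end 50-base reads on the DNBSEQ platform, per the labels' protocols. Genome build hg38 is named in the submitters' processing notes. Aligner, counter, annotation and strand setting: not given in the sources used here. Unscaled, per the file headers, the authors deposited estimated counts of reads per gene and per RefSeq transcript; 14.7% to 15.6% of a library's gene values have a decimal part. The authors also deposited FPKM values per gene, scaled to transcript length and library size, per the file headers. Another 30 per-sample columns were not used.

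Counts were rounded, filtered with edgeR filterByExpr (edgeR 4.0.16, R 4.3.3), scaled by TMM and tested on the whole table with the quasi-likelihood test, two-sided, Benjamini-Hochberg adjusted over 12671 genes, threshold 0.05. Intervals are 95% Wald intervals of that fit. CPM uses the TMM-scaled library size. Alternatives were RLE scaling, no filter, robust dispersion, DESeq2 1.42.0, limma-trend 3.58.1 on log2(FPKM + 1) and log2(FPKM + 0.1), the replicate number as a block, and each library left out. The steps were tested on simulated data. Shared 50-base stretches were counted in GENCODE 29 transcripts. Promoters are RefSeq's and were searched for 34 members. Chromosome 8, and with it POLB, was left out of the member search but not of the background.

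The members and gene lists were chosen with earlier results of these data known. Values per library are given for the highest and lowest member by FPKM and the 2 with the smallest p in each role; GTF2H3 and the transcripts named were singled out after their values were seen. For the other repair genes the rule takes the 3 with the smallest p, of which 1 is not reported here.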

Additional observations from a re-analysis of the deposited data

How the results depend on the processing

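None of the 35 genes was called in 13 of 14 alternatives, and POLH was called without shVPS13C replicate 2 (log2 -0.24, adjusted p = 0.0482). Over the single libraries left out, members called ran from 0 to 1, other repair genes from 0 to 2, all genes from 204 to 463, members with an interval inside 1.2-fold from 26 to 32 and the member median from -0.0530 to -0.0245. All genes called were 337 with DESeq2, 147 with limma-trend on log2(FPKM + 1) and 151 on log2(FPKM + 0.1); with no filter 758 were called, 1 of them another repair gene. Of 490 member values under alternatives, 472 moved by less than 1 SE of the main value, 17 by more, and 1 (POLH, above) passed the threshold. The fitted values of CETN2, DDB1, ERCC1, ERCC4, GTF2H5, HMGB1, MAD2L2, MSH6, POLI, UVSSA and XPA, all near 0, took either sign across alternatives. Summing ERCC5 with BIVM-ERCC5 and GTF2H2 with GTF2H2C, added after seeing the data, called 571 genes and 0 members; the cause of these shifts was not tested. The replicate number as a block gave 483 called genes and 0 members. Same-numbered libraries had deviations from their group means correlated at 0.04, -0.007 and -0.15 over all tested genes, so no clear link by number was seen. Deviations from means of 3 libraries constrain each other, so these values cannot show whether same-numbered libraries were handled together. With 3 libraries a group, the 95% intervals of the members had a median half-width of 0.13 on the log2 scale, from 0.08 to 0.18.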
